A study of Rattus norvegicus with 12 samples.

Results

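The genes of glycolysis and of the response to low oxygen were followed in cultured neural stem cells of the rat, isoform by isoform. The set was a list of 35 genes. It holds glucose transporters, the enzymes from hexokinase to lactate dehydrogenase, the pyruvate dehydrogenase kinases, other targets of the hypoxia-inducible factor, and its oxygen sensors. A gene was taken up where the platform annotation gave a probe set its symbol and no other. Such a probe set was found for 34 of the 35 genes (56 probe sets), of 14218 genes in the whole table. After a filter on dim signals 32 of these genes could be tested (43 probe sets), of 11230 genes in all. Pkm, pyruvate kinase, is measured only by a probe set shared with a pseudogene. Gapdh has only control probe sets and 1 shared with a related gene, and Car9, a carbonic anhydrase, lay below the filter.

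RNA was hybridised to 12 Affymetrix Rat230_2 arrays, whose probe sets are short oligonucleotides that read a transcript near its 3' end. The cells, from Sprague Dawley rats of postnatal day 3 to 5, formed 4 groups of 3 arrays: proliferative brain, differentiated brain, proliferative spinal cord and differentiated spinal cord cultures. All groups are cultures of neural stem cells with no genetic change named. Differentiated groups carry the word "fenhua", romanised Chinese for differentiation, in their titles. The means and the length of differentiation are not given in the sources used here. No label ties the arrays of a group to separate cultures or animals, so that p-values measure the spread between arrays, which may be technical.

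Glycolysis splits glucose into pyruvate. Lactate dehydrogenase turns pyruvate into lactate, while pyruvate dehydrogenase feeds it to the mitochondria unless a Pdk kinase switches that enzyme off. Many of the steps have several isoforms encoded by separate genes, and their mix differs between cell types: aldolase C and the B chain of lactate dehydrogenase are well known from astrocytes and neurons, respectively, and enolase 2 from neurons. When oxygen is low, the prolyl hydroxylases encoded by the Egln genes no longer mark Hif1a protein for destruction, and the factor then switches on its targets, among them most glycolytic genes, Vegfa and Egln3 itself. Control of Hif1a lies largely at the protein level, which arrays of RNA do not measure.

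The factor binds the core letters ACGTG or GCGTG in DNA. Promoters were read from RefSeq (build GRCr8) for 31 of the 35 genes, at the first start listed for each. At least 1 of these cores, on either strand, stood within the 300 bases from 250 before to 50 after the start in 21 of 31 promoters (67.7%) and in 42.9% of all 27457 promoters in the table. ACGTG was found in 54.8% against 19.7%, and GCGTG in 45.2% against 31.1%. The cores hold many G and C, and base composition moved with the share: the median GC content was 63.0% for the members and 52.3% for all promoters. In the 250 bases before the start the share with either core was 61.3% against 37.9%. A match is a description of the letters and not a binding site.

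The promoters of 7 genes are shown as examples of the members whose transcripts fell or rose in brain alone or changed in opposite directions in the tissues. Each is given 5′ to 3′ on the gene's strand, as the 250 bases before the start, with both cores on either strand in capitals. Of those shown, the 3 promoters with no or 1 match belong to Tpi1, Egln3 and Ldhb. Further members of these patterns are not shown: Hk2, Aldoa and Pdk4 have no core in these bases, Pfkm and Pfkfb3 have 1 stretch, and Pfkl and P4ha1 have 2.
Ldha (chr1:106507842-106508091, forward strand): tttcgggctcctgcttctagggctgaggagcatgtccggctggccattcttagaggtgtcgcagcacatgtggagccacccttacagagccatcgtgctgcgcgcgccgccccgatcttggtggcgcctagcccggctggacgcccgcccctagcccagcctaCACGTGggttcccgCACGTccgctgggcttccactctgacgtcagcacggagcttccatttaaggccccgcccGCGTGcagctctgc
Pgam1 (chr1:250672902-250673151, forward strand): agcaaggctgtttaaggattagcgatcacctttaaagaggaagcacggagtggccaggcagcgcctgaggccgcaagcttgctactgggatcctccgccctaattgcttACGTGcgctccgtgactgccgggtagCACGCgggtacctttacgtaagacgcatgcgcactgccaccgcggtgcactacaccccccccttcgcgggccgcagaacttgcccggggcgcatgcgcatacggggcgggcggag
Tpi1 (chr4:159305089-159305338, reverse strand): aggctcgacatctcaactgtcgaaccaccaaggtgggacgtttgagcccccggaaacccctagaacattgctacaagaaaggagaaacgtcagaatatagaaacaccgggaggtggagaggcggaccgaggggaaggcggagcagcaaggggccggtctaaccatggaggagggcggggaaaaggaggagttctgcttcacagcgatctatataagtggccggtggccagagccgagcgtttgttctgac
Ldhb (chr4:177177409-177177658, reverse strand): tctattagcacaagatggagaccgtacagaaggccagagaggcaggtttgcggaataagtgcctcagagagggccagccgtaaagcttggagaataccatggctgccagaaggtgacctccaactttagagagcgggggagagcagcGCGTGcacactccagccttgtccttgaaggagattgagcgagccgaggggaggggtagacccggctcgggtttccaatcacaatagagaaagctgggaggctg
Aldoc (chr10:63715294-63715543, forward strand): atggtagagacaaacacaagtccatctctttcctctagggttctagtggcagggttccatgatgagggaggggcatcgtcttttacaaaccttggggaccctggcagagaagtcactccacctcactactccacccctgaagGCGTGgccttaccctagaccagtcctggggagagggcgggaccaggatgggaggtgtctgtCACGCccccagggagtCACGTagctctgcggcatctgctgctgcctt
P4ha2 (chr10:38743644-38743893, forward strand): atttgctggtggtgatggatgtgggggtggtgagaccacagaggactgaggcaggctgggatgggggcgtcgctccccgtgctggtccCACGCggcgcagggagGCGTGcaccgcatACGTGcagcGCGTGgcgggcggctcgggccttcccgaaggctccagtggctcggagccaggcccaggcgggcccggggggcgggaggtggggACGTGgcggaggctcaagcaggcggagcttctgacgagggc
Egln3 (chr6:77411016-77411265, reverse strand): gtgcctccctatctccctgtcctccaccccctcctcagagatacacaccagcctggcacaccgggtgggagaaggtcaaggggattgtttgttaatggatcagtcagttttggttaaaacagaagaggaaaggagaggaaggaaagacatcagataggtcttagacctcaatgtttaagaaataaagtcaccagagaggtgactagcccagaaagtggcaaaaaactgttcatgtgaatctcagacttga
Ldha, the A chain of lactate dehydrogenase, has 3 stretches of matching letters and P4ha2, a collagen prolyl hydroxylase, has 5. Aldoc has 3, Pgam1, phosphoglycerate mutase, has 2, and Ldhb has 1. Tpi1, triose phosphate isomerase, and Egln3 have none in this window, which says only that these letters are not there. Genes with several matches are found among those that fell in brain (Ldha, Pgam1) as well as among those that rose there (Aldoc).

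Depth in reads does not apply to arrays, and the number of arrays limits the precision. Values are log2 signals, and the median of an array lay between 6.88 and 7.23. The 3' minus 5' signal of Gapdh, a sign of RNA quality, was -0.13 to 0.13, that of hexokinase -0.32 to 0.94 and that of Actb 0.69 to 1.01. For Actb the differentiated spinal cord arrays were at 0.99 to 1.01, and spinal cord proliferative replicate 2 was at 0.99. The labelled cell type had its markers: of 8 neural stem and progenitor genes 7 were tested, with a summed level of 15.63 to 15.88 in proliferative brain, 15.92 to 16.15 in differentiated brain, 15.37 to 15.43 in proliferative spinal cord and 15.29 to 15.36 in differentiated spinal cord cultures. A summed level is the log2 of the added linear signals, so that the brightest genes, here Vim and Fabp7, weigh most. The mean log2 signal of the 7 genes was 10.69 to 11.27, 11.26 to 11.32, 10.28 to 10.39 and 9.35 to 9.64 in the same order. Nes and Pax6 had lower means in spinal cord than in brain cultures of the same state. The mean signals of Nes were 11.04, 10.22, 9.39 and 7.95 in the same order, and those of Pax6 10.67, 10.66, 8.18 and 7.31. Hes5 was dim in 3 of the 4 groups. A gene is called dim in a group where all 3 arrays lay under the 40th percentile of their own signals, and folds against such a group are given only as bounds. Of the 32 tested members, Hk2 and Pdk4 were dim in 1 group each. Markers of other cells were also present and moved with the groups. The summed level of 8 astrocyte genes was 14.79 to 15.12 in proliferative brain, 16.75 to 16.87 in differentiated brain, 14.45 to 15.34 in proliferative spinal cord and 15.55 to 15.82 in differentiated spinal cord cultures. For 8 fibroblast and meningeal genes it was 8.92 to 9.41, 9.50 to 9.85, 14.55 to 15.39 and 16.63 to 16.84 in the same order. Lum, Pdgfrb and Ogn were dim in both brain groups, and Dcn and Lox in differentiated brain alone. Fewer cells of a type and less RNA per cell cannot be told apart in these bulk cultures. Spinal cord proliferative replicate 1 stood apart: in 9 of the 32 members it lay over 0.5 from both other arrays of its group, as in 19.8% of all genes tested, against 0 to 5 members for every other array.

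In brain cultures, 9 of the 32 members rose with differentiation, 11 fell and 12 were not called (limma, Benjamini-Hochberg adjusted p under 0.05 over 20834 probe sets). Of all genes tested, 24.1% rose and 28.5% fell, so that the members' 28.1% and 34.4% lay near the background. Counted over probe sets, 23.7% rose and 23.1% fell. In spinal cord cultures 5 rose, 12 fell and 15 were not called, against 20.9% and 22.6% of all genes (18.3% and 22.0% of probe sets). The median change of the members was -0.04 in brain and -0.12 in spinal cord, and that of all genes -0.06 and -0.04. Subtracting each array's median moved the median of all genes in brain by -0.15. It left 8 members higher and 11 lower there, against 18.2% and 34.8% of all genes. In spinal cord it left 6 and 8, against 22.1% and 17.8%, so that rises made up 42.9% of the member calls in place of 29.4%. Both comparisons are the base of the difference of responses, the change in spinal cord minus the change in brain. That difference was called for 19 members, with 11 higher and 8 lower, against 23.7% and 21.2% of all genes (18.8% and 21.7% of probe sets). Slc2a3, Eno1, Pdk1, Pdk2 and Vegfa changed in the same direction in both tissues, and Pfkfb3, Aldoc, P4ha2 and Egln3 in opposite directions. A further 11 members were called in brain alone, 8 in spinal cord alone and 4 in neither. These patterns were not counted over all genes, so that their numbers are not read as a trait of the set.

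**Figure D1:**
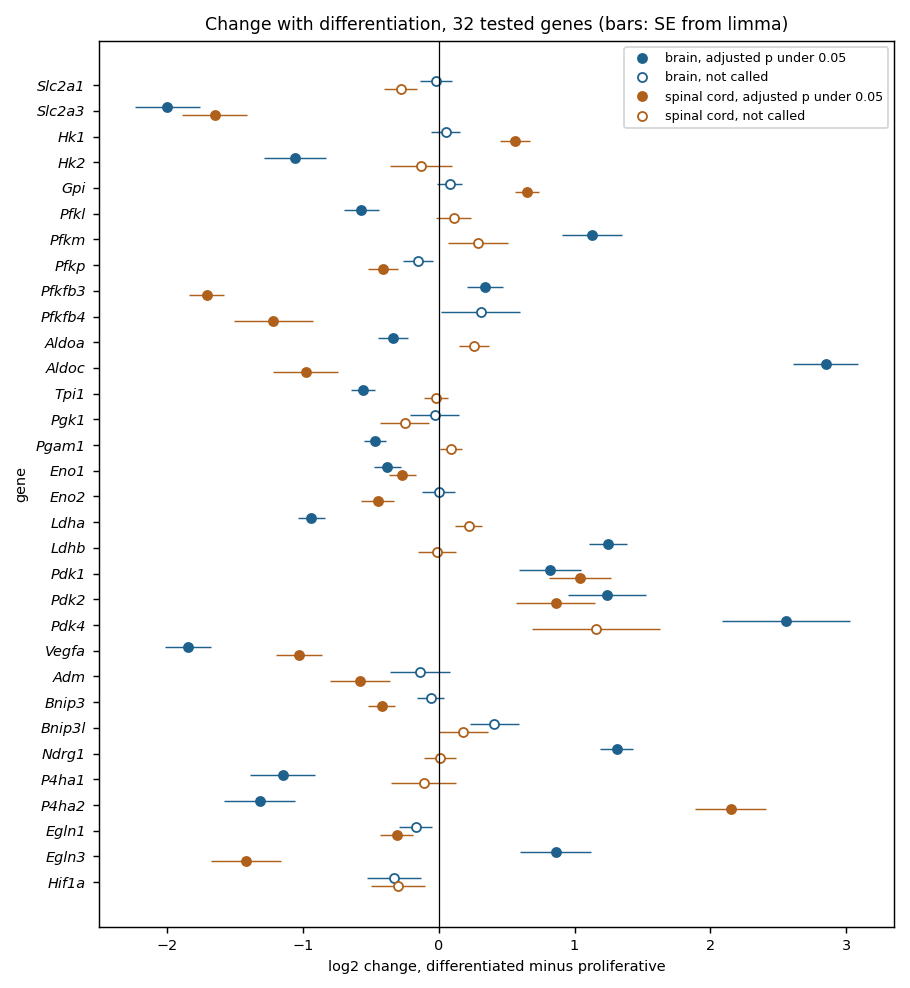
Log2 change with differentiation (x axis, differentiated minus proliferative) of the 32 tested genes (y axis), brain in blue and spinal cord in orange, with bars for limma's standard error and filled points for an adjusted p under 0.05. Aldoc lies at 2.85 in brain and -0.98 in spinal cord, P4ha2 at -1.32 and 2.15, and Slc2a3 is lower in both.

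Glucose enters neural cells through the transporters encoded by Slc2a1, found widely, and Slc2a3, the high-affinity transporter typical of neurons. Slc2a3 fell in both tissues with differentiation and Slc2a1 was called in neither. On its proliferative brain arrays Slc2a3 read 9.26, 8.62 and 9.08, against 6.64, 6.83 and 7.5 on the differentiated ones. The spinal cord values were 8.39, 8.94 and 8.57 in proliferative and 7.04, 6.98 and 6.95 in differentiated cultures. Proliferative and differentiated arrays did not overlap in either tissue, and the tissues overlapped in each state. The fall was 3.99-fold in brain (log2 change -2.0 ± 0.24 SE, adjusted p = 1.43e-05) and 3.13-fold in spinal cord (-1.65 ± 0.24, adjusted p = 9.58e-05), and the difference of responses was not called (0.35, adjusted p = 0.434). Neuron markers moved too: the summed level of 8 genes was 12.93 to 13.82 in proliferative and 12.75 to 13.14 in differentiated brain, and 13.05 to 13.14 and 11.19 to 11.51 in spinal cord, with Rbfox3 dim in differentiated spinal cord cultures. The summed ranges of the states overlapped in brain. The mean log2 signal of the 8 genes did not overlap there, at 9.27 to 10.27 in proliferative and 8.5 to 8.75 in differentiated cultures. The mean signal of Snap25 went from 10.01 to 7.27 and that of Gad1 from 11.14 to 8.48, the largest falls of the list. Tubb3, Dcx, Rbfox3, Syt1 and Stmn2 also had lower means, whereas Map2 went from 11.58 to 12.36. The part of these cells in the fall of Slc2a3 was not tested. Signals of Slc2a1 in brain were 10.19, 9.97 and 10.27 before and 10.2, 10.1 and 10.07 after differentiation. Spinal cord cultures gave 10.31, 10.6 and 10.16 before and 10.08, 10.1 and 10.04 after. All arrays of Slc2a1 lay between 9.97 and 10.6, and its states overlapped in brain, while in spinal cord the differentiated arrays were below the proliferative ones. Its changes were -0.02 ± 0.12 in brain (adjusted p = 0.908) and -0.28 ± 0.12 in spinal cord (adjusted p = 0.0803). Leaving out spinal cord proliferative replicate 3 gave 0.0313, in a range of 0.0313 to 0.318 over the alternatives. The log2 ratio of Slc2a1 to Slc2a3 within an array thus rose by 1.98 in brain and by 1.37 in spinal cord, with no overlap of the states in either. An exact two-sided permutation test gives p = 0.1 for each, the smallest possible for 3 against 3 arrays.

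Hexokinase traps glucose in the cell, and its isoforms took different courses. Hk1, the constitutive isoform of brain, rose in spinal cord, and Hk2, the inducible isoform, fell in brain. Hk1 was at 10.51, 10.59 and 10.59 in brain and 10.01, 9.8 and 9.71 in spinal cord while cells proliferated. After differentiation it was at 10.66, 10.55 and 10.65 in brain and 10.41, 10.56 and 10.24 in spinal cord. The proliferative spinal cord arrays were the lowest of the 4 groups, with no overlap. The rise in spinal cord was 1.48-fold (adjusted p = 0.000841), the brain change was 0.05 ± 0.11 (adjusted p = 0.712), and the difference of responses was 0.51 (adjusted p = 0.015). Of the 3 hexokinase control probe sets, which also read Hk1 and were added after seeing the data, only that of the 5' end called the rise in spinal cord (0.70, adjusted p = 0.0296), against 0.33 and 0.29 for the 3' and middle ones (adjusted p = 0.169 and 0.457). None called the difference of responses (0.25, 0.69 and 0.46, adjusted p = 0.467, 0.118 and 0.398). Proliferative brain cultures had Hk2 signals of 7, 7.49 and 6.97, and differentiated ones 6.13, 5.93 and 6.22. In spinal cord these were 7.41, 7.29 and 6.9 and, after differentiation, 7.08, 6.98 and 7.15. Differentiated brain cultures were dim for Hk2, so the fall in brain is a bound, at least 1.80-fold (adjusted p = 0.00195). In spinal cord the change was -0.13 ± 0.23 (adjusted p = 0.699). The difference of responses rests on that dim group, so that its size is not measured. Its test gave an adjusted p of 0.0352, which ran from 0.0505 to 0.0891 without any 1 of 6 arrays (brain proliferative 2, brain differentiated 1 and 2, spinal cord proliferative 3, spinal cord differentiated 1 and 3), in a range of 0.0093 to 0.0891 over the alternatives. Gpi is the isomerase of the next step. The 3 proliferative brain arrays gave 11.56, 11.46 and 11.71 for Gpi, and the differentiated ones 11.66, 11.68 and 11.65. From spinal cord came 11.68, 11.42 and 11.42 in the proliferative and 12.22, 12.19 and 12.06 in the differentiated state. The differentiated spinal cord arrays were above all others. Gpi rose 1.57-fold in spinal cord (adjusted p = 9.95e-05), and the difference of responses was 0.57 (adjusted p = 0.00389).

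Phosphofructokinase is the main control point of glycolysis, made of liver (Pfkl), muscle (Pfkm) and platelet (Pfkp) type subunits. In brain the muscle type rose while the liver type fell. For Pfkm, brain arrays ran 9.13, 9.04 and 9.27 in the proliferative and 10.29, 10.13 and 10.42 in the differentiated state. Those of spinal cord ran 8.47, 9.5 and 9.53 and, once differentiated, 9.38, 9.65 and 9.34. The differentiated brain arrays were above all others. On its proliferative brain arrays Pfkl read 8.32, 8.4 and 8.6, against 7.85, 7.87 and 7.9 on the differentiated ones. The spinal cord values were 8.21, 8.08 and 8.08 in proliferative and 8.23, 8.33 and 8.15 in differentiated cultures. For Pfkl the differentiated brain arrays were below all others. Pfkm rose 2.19-fold in brain (adjusted p = 0.000947, and 2.61-fold by another probe set), and Pfkl fell 1.48-fold (adjusted p = 0.00336). In spinal cord neither was called, at 0.29 ± 0.22 for Pfkm and 0.11 ± 0.13 for Pfkl. The ratio of Pfkl to Pfkm fell by 1.70 in brain and its states overlapped in spinal cord. Signals of Pfkp in brain were 10.54, 10.53 and 10.71 before and 10.54, 10.4 and 10.41 after differentiation. Spinal cord cultures gave 10.83, 10.49 and 10.41 before and 10.15, 10.23 and 10.1 after. Its differentiated spinal cord arrays were the lowest, and it fell 1.33-fold in spinal cord (adjusted p = 0.010, and 0.0699 after median centring, in a range of 0.00606 to 0.0699 over the alternatives). The difference of responses was 0.68 for Pfkl (adjusted p = 0.011) and -0.85 for Pfkm (adjusted p = 0.0468). The latter call was lost without any 1 array other than spinal cord proliferative 1 and spinal cord differentiated 2 (adjusted p = 0.0537 to 0.117). The other probe set of Pfkm gave -1.56 (adjusted p = 0.00103).

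The enzymes encoded by Pfkfb3 and Pfkfb4 set the level of a sugar bisphosphate that is the strongest activator of phosphofructokinase, and both are known hypoxia targets. Both fell in spinal cord. Pfkfb3 was at 11.02, 10.75 and 11.13 in brain and 10.47, 10.57 and 10.48 in spinal cord while cells proliferated. After differentiation it was at 11.1, 11.42 and 11.4 in brain and 8.76, 8.62 and 9.02 in spinal cord. The differentiated spinal cord arrays were the lowest, with no overlap, and the states overlapped in brain. The fall in spinal cord was 3.26-fold (adjusted p = 3.53e-07). In brain the change was 0.34 (adjusted p = 0.0473), a call lost under 10 of 22 alternatives, among them leaving out brain proliferative 1 or 2, brain differentiated 2 or 3, spinal cord proliferative 2 or 3, or spinal cord differentiated 1 (adjusted p = 0.0535 to 0.196). Responses differed by -2.05 (adjusted p = 1.75e-06). By the other probe set of Pfkfb3 the spinal cord change was -0.68 and not called (adjusted p = 0.12), and the difference was -1.39 (adjusted p = 0.0283). That probe set was dim in differentiated spinal cord cultures, so that both sizes are not measured. Proliferative brain cultures had Pfkfb4 signals of 6.98, 7.52 and 7.72, and differentiated ones 7.73, 7.66 and 7.76. In spinal cord these were 9.9, 8.71 and 8.69 and, after differentiation, 8.09, 7.64 and 7.91. Here the proliferative spinal cord arrays were the highest, with replicate 1 well above the others. Pfkfb4 fell 2.33-fold in spinal cord (adjusted p = 0.00416) and its change in brain was 0.31 ± 0.29 (adjusted p = 0.408), with a difference of -1.53 (adjusted p = 0.0087). By the other probe set of Pfkfb4, also dim in differentiated spinal cord cultures, that difference was -1.56 and not called (adjusted p = 0.0936), and its size is not measured.

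Aldolase splits the sugar into triose phosphates, and its isoforms A and C moved against each other in brain. Aldoc, the brain isoform, had the largest measured rise in brain among the members that were dim in neither brain group. The 3 proliferative brain arrays gave 9.81, 9.53 and 10.02 for Aldoc, and the differentiated ones 12.65, 12.66 and 12.61. From spinal cord came 10.68, 11.86 and 11.91 in the proliferative and 10.53, 10.46 and 10.51 in the differentiated state. In brain the 3 differentiated arrays lay above every other array of the series, whereas in spinal cord they lay below the proliferative ones, of which replicate 1 was the lowest by more than 0.5. Aldoc rose 7.22-fold in brain (2.85 ± 0.24, adjusted p = 7.73e-07) and fell 1.98-fold in spinal cord (adjusted p = 0.00555). Responses differed by -3.84 ± 0.34 (adjusted p = 1.57e-06). For Aldoa, brain arrays ran 13.36, 13.38 and 13.47 in the proliferative and 13.27, 12.93 and 13.02 in the differentiated state. Those of spinal cord ran 13.19, 13.25 and 13.23 and, once differentiated, 13.65, 13.57 and 13.22. Aldoa is the ubiquitous isoform, and its differentiated brain arrays were below the proliferative ones, while the spinal cord states overlapped. It fell 1.26-fold in brain (adjusted p = 0.0221), a call lost without brain differentiated 2 or 3 or brain proliferative 3 (adjusted p = 0.0666 to 0.0988). In spinal cord its change was 0.26 (adjusted p = 0.0775, and 0.00871 without spinal cord differentiated 3, in a range of 0.00871 to 0.573). The ratio of Aldoa to Aldoc fell by 3.19 in brain and rose by 1.24 in spinal cord, with no overlap of the states (exact two-sided p = 0.1 each). The summed astrocyte markers rose in the same brain cultures, by the values given above. In spinal cord their summed level rose as well, while Aldoc fell. The list was split there: Aqp4, Slc1a2, Slc1a3, Aldh1l1 and Gja1 had higher means after differentiation, and Gfap, S100b and Sparcl1 lower ones. The part of these cells in the changes of Aldoc was not tested.

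**Figure D2:**
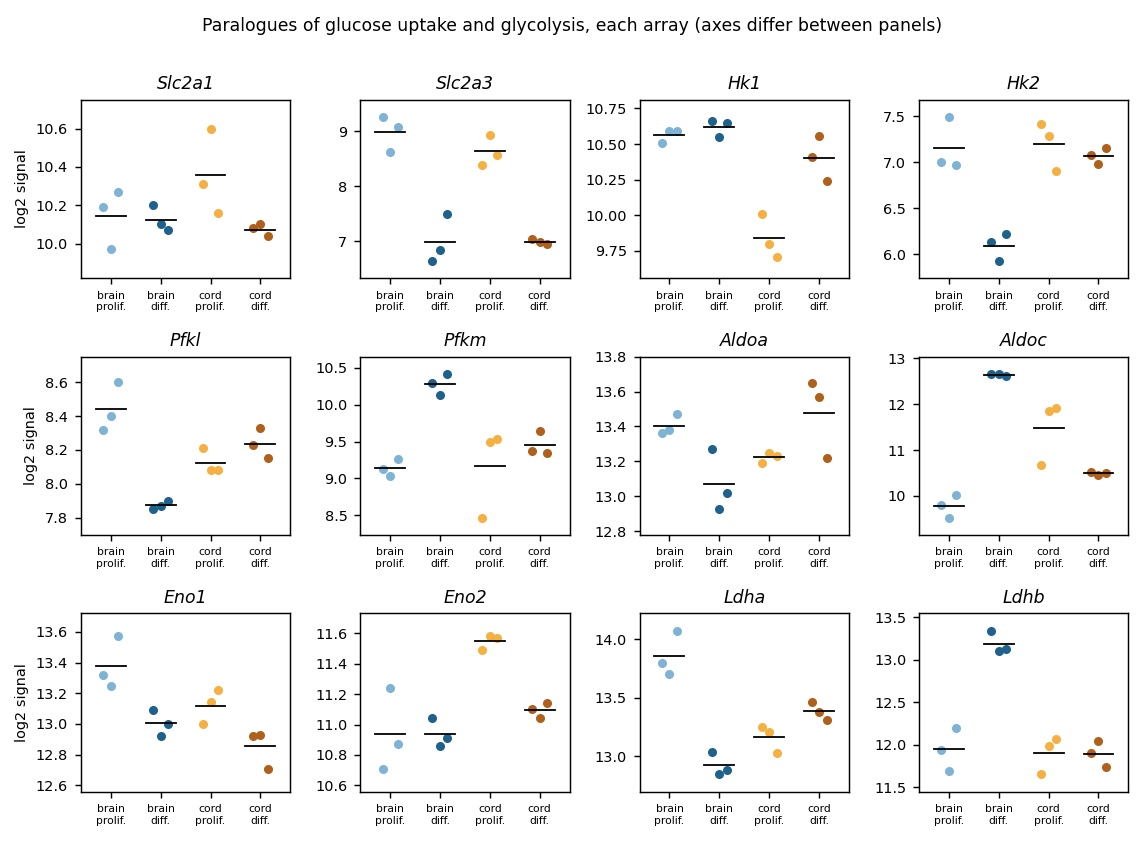
Log2 signal (y axis, range differs between panels) of 12 transporters and glycolytic enzymes on each of the 3 arrays per group (x axis), with a line at the group mean. The differentiated brain arrays of Aldoc sit at 12.61 to 12.66 and those of Ldhb at 13.10 to 13.34, above all other arrays of their panels.

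Of the steps from triose phosphate towards pyruvate, those of Tpi1 and Pgam1 fell with differentiation in brain. Tpi1 fell 1.48-fold from 13.10 ± 0.10 to 12.53 ± 0.12 (SD, n = 3; adjusted p = 0.000191), and Pgam1 1.38-fold from 13.77 ± 0.07 to 13.30 ± 0.06 (adjusted p = 0.000274). Neither was called in spinal cord, at -0.02 ± 0.09 and 0.09 ± 0.08, and both differences of responses were called, 0.54 for Tpi1 (adjusted p = 0.00405) and 0.56 for Pgam1 (adjusted p = 0.00124). Pgk1, phosphoglycerate kinase, depended on the probe set. The probe set with the highest mean signal, which stands for the gene, was not called (-0.03 ± 0.18 in brain, adjusted p = 0.909), and its brain proliferative arrays spread from 13.02 to 14.03. Another one, with 13.46 ± 0.12 and 12.85 ± 0.04, fell 1.53-fold in brain (adjusted p = 8.93e-05) and gave a difference of responses of 0.59 (adjusted p = 0.00223). Gapdh, the glyceraldehyde phosphate dehydrogenase, is read, apart from the shared probe set, by 3 control probe sets, which were added to the fit after seeing the data. In brain the middle one fell by 0.26 (adjusted p = 0.0321), while those of the 3' and 5' end were not called (-0.18 and -0.05). In spinal cord all 3 rose, by 0.23 to 0.27 (adjusted p = 0.03 to 0.0433). Gapdh is often used as a constant reference, and here its responses in spinal cord and brain differed by 0.41 and 0.54 for the 3' and middle probe sets (adjusted p = 0.0133 and 0.00498), and by 0.32 for that of the 5' end (adjusted p = 0.0815). These values depend on the scaling. After median centring the rises in spinal cord were 0.31 to 0.35 and not called (adjusted p = 0.0539 to 0.0843). After quantile normalization they were -0.03 to 0.07 and not called (adjusted p = 0.423 to 0.716), and the differences for the 3' and 5' probe sets turned to -0.02 and -0.06, with 0.27 for the middle one (adjusted p = 0.0385).

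Enolase makes phosphoenolpyruvate, as Eno1 in most cells and Eno2 in neurons. On its proliferative brain arrays Eno1 read 13.32, 13.25 and 13.57, against 13.09, 12.92 and 13 on the differentiated ones. The spinal cord values were 13, 13.14 and 13.22 in proliferative and 12.92, 12.93 and 12.71 in differentiated cultures. The states did not overlap in either tissue. Eno1 fell 1.30-fold in brain (adjusted p = 0.00656). Its fall of 1.20-fold in spinal cord (adjusted p = 0.0465) was lost under 13 of 22 alternatives, such as leaving out any 1 array but brain proliferative 2 and 3, brain differentiated 1 and spinal cord proliferative 1 (adjusted p = 0.0548 to 0.177). Signals of Eno2 in brain were 10.71, 11.24 and 10.87 before and 11.04, 10.86 and 10.91 after differentiation. Spinal cord cultures gave 11.49, 11.58 and 11.57 before and 11.1, 11.04 and 11.14 after. Eno2 was highest on the proliferative spinal cord arrays. Eno2 fell 1.37-fold in spinal cord (adjusted p = 0.00712), and in brain its change was 0.00 ± 0.12 (adjusted p = 0.983). Markers of neurons moved in the same direction in spinal cord: their summed levels are those given beside Slc2a3, and their part was not tested. The difference of responses of Eno2, -0.45 (adjusted p = 0.0437), was lost without any 1 array other than brain proliferative 2 and spinal cord proliferative 1 (adjusted p = 0.0519 to 0.112).

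Lactate dehydrogenase is a tetramer of A chains, which favour lactate, and B chains, which favour pyruvate. In brain the A chain fell and the B chain rose, and neither was called in spinal cord. Ldha was at 13.8, 13.7 and 14.07 in brain and 13.25, 13.21 and 13.03 in spinal cord while cells proliferated. After differentiation it was at 13.04, 12.85 and 12.88 in brain and 13.46, 13.38 and 13.31 in spinal cord. The proliferative brain arrays were above all others, and the differentiated brain arrays were low, overlapping only with proliferative spinal cord replicate 3. Proliferative brain cultures had Ldhb signals of 11.94, 11.69 and 12.2, and differentiated ones 13.34, 13.1 and 13.12. In spinal cord these were 11.65, 11.98 and 12.07 and, after differentiation, 11.9, 12.04 and 11.73. For Ldhb the differentiated brain arrays stood alone at the top. Ldha fell 1.91-fold in brain (-0.94 ± 0.10, adjusted p = 5.73e-06), while in spinal cord its change was 0.22 ± 0.10 (adjusted p = 0.0993). Ldhb rose 2.37-fold in brain (adjusted p = 8.91e-06), and in spinal cord its change was -0.01 ± 0.14 (adjusted p = 0.963). Both differences of responses were called, 1.15 for Ldha (adjusted p = 2.46e-05) and -1.26 for Ldhb (adjusted p = 0.000212). The log2 ratio of Ldha to Ldhb fell from 1.86, 2.02 and 1.87 to -0.31, -0.25 and -0.24 in brain, a change of -2.18 (exact two-sided p = 0.1). In spinal cord the states overlapped, with 1.60, 1.24 and 0.96 before and 1.56, 1.34 and 1.59 after (exact two-sided p = 0.4). Probe sets differ in brightness, so only the change of the ratio is read.

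The Pdk kinases hold back the entry of pyruvate into the mitochondria, and all 3 members of this group rose in brain. The 3 proliferative brain arrays gave 7.84, 8.33 and 7.18 for Pdk1, and the differentiated ones 8.41, 8.65 and 8.74. From spinal cord came 7.51, 7.39 and 7.71 in the proliferative and 8.58, 8.47 and 8.69 in the differentiated state. For Pdk2, brain arrays ran 8.52, 7.88 and 9.09 in the proliferative and 9.55, 9.77 and 9.87 in the differentiated state. Those of spinal cord ran 7.62, 8.57 and 8.66 and, once differentiated, 9.35, 9.06 and 9.03. In both genes the differentiated arrays were above the proliferative ones in each tissue, and the proliferative brain arrays spread widely. Pdk1 rose 1.76-fold in brain (adjusted p = 0.0109) and 2.06-fold in spinal cord (adjusted p = 0.00291), and without brain proliferative replicate 3 the brain change was 0.52 in place of 0.82 (adjusted p = 0.0398). By the other probe set Pdk1 rose 1.39-fold in brain (adjusted p = 0.0239), and its spinal cord change of 0.36 was not called (adjusted p = 0.0886). Pdk2 rose 2.36-fold in brain (adjusted p = 0.00334) and 1.82-fold in spinal cord (adjusted p = 0.0302). The latter call was lost without spinal cord proliferative replicate 1 (0.53, adjusted p = 0.118) or any 1 of the differentiated spinal cord arrays (adjusted p = 0.0511 to 0.103). By the other probe set Pdk2 rose 6.78-fold in brain (adjusted p = 0.00388) and, from a dim group, at least 1.4-fold in spinal cord (adjusted p = 0.00605). In proliferative brain cultures that probe set read 4.54, 3.89 and 7.31. The readings of 4.54 and 3.89 lay under the dim cut-off of their arrays (6.19 and 6.23). Only that of 7.31 kept the group from being called dim, so that the size of this brain rise is poorly measured. On its proliferative brain arrays Pdk4 read 5.68, 4.05 and 3.43, against 7.25, 6.88 and 6.71 on the differentiated ones. The spinal cord values were 5.77, 6.3 and 6.46 in proliferative and 7.19, 7.45 and 7.38 in differentiated cultures. Pdk4 was dim on the proliferative brain arrays and rose there at least 1.78-fold (adjusted p = 0.000535). In spinal cord the 3 differentiated arrays were above the proliferative ones, but the change of 1.16 missed the threshold (adjusted p = 0.0637), and passed it without brain proliferative 1 or 3 (adjusted p = 0.0111 and 0.0277), in a range of 0.00512 to 0.164. The other probe set of Pdk4, dim in differentiated brain and proliferative spinal cord cultures, was not called in either tissue (0.78 and 0.29, adjusted p = 0.221 and 0.677). No difference of responses was called for these 3 genes, and that of Pdk4, which rests on the dim group, was called without brain proliferative replicate 1 (adjusted p = 0.00463), in a range of 0.00463 to 0.277.

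**Figure D3:**
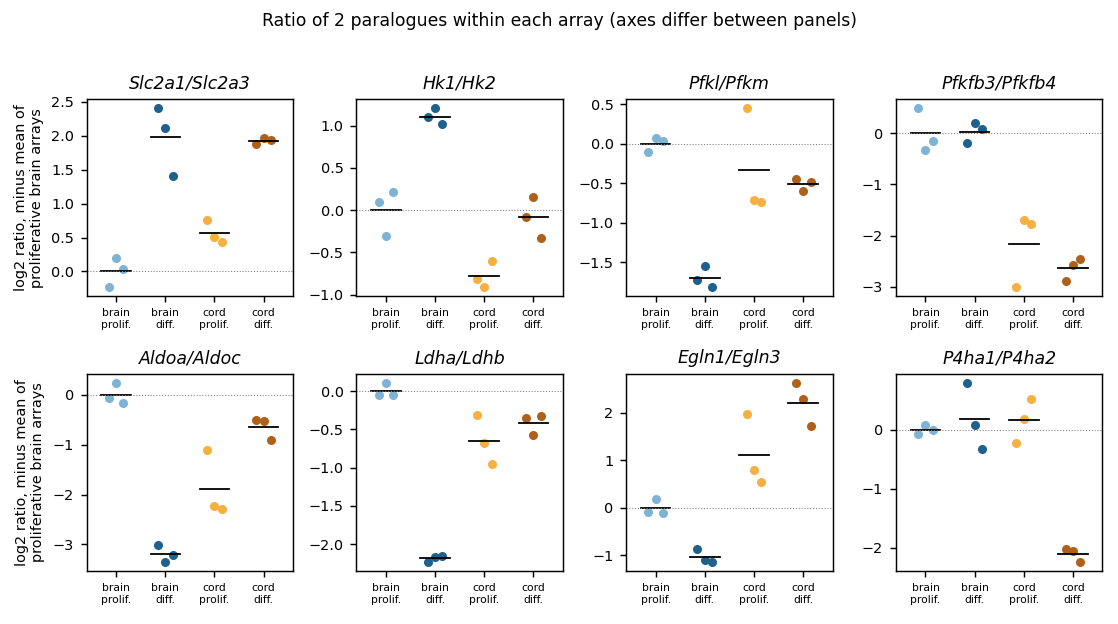
Log2 ratio of 2 paralogues on each array (y axis, relative to the mean of the proliferative brain arrays, range differs between panels) in the 4 groups (x axis), with a line at the group mean. With differentiation Aldoa over Aldoc changes by -3.19 and Ldha over Ldhb by -2.18 in brain, and P4ha1 over P4ha2 by -2.26 in spinal cord.

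Among the other hypoxia targets Vegfa, the growth factor of blood vessels, fell in both tissues. Signals of Vegfa in brain were 10.14, 10.59 and 10.11 before and 8.3, 8.43 and 8.55 after differentiation. Spinal cord cultures gave 10.06, 10.69 and 10.3 before and 9.27, 9.27 and 9.43 after. Differentiated arrays were below proliferative ones in each tissue, and those of brain were the lowest. The fall was 3.62-fold in brain (adjusted p = 1.12e-06) and 2.04-fold in spinal cord (adjusted p = 0.000239), and it was larger in brain (difference of responses 0.83, adjusted p = 0.0118). The other probe set of Vegfa gave falls of 3.11-fold and 1.83-fold. Adm, for adrenomedullin, a dilator of vessels, read 7.85 to 8.86 over all arrays. Its fall of 1.5-fold in spinal cord (adjusted p = 0.0481) was lost under 14 of 22 alternatives, such as leaving out any 1 array but brain proliferative 2 and 3 and spinal cord differentiated 2 (adjusted p = 0.0535 to 0.165). Without brain proliferative replicate 3 the difference of responses of Adm was -0.70 and called (adjusted p = 0.0425), against -0.44 (adjusted p = 0.281) with it.

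Bnip3 and Bnip3l encode receptors for the removal of mitochondria. Bnip3 was at 11.28, 11.4 and 11.37 in brain and 11.29, 11.51 and 11.59 in spinal cord while cells proliferated. After differentiation it was at 11.29, 11.34 and 11.24 in brain and 11.09, 10.89 and 11.16 in spinal cord. Only the differentiated spinal cord arrays lay apart, below the others. Bnip3 fell 1.33-fold in spinal cord (adjusted p = 0.00429), and its brain change was -0.06 ± 0.10 (adjusted p = 0.671). The difference of responses of -0.36 was not called (adjusted p = 0.0555), but was without spinal cord proliferative 1 or spinal cord differentiated 3 (adjusted p = 0.0106 and 0.0409), in a range of 0.0106 to 0.596. Proliferative brain cultures had Bnip3l signals of 11.18, 10.65 and 11.29, and differentiated ones 11.45, 11.43 and 11.48. In spinal cord these were 11.34, 12.03 and 12.03 and, after differentiation, 11.99, 11.95 and 12. Bnip3l was lowest on the proliferative brain arrays. It was called in neither tissue (0.41 in brain, adjusted p = 0.0743). In brain it was called without brain proliferative 3 or spinal cord proliferative 1 (adjusted p = 0.0372 and 0.015), and its other probe set rose 1.53-fold (adjusted p = 0.0141).

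Ndrg1, a stress-induced protein that is also abundant in myelinating glia, rose in brain alone. The 3 proliferative brain arrays gave 7.17, 7.03 and 7.06 for Ndrg1, and the differentiated ones 8.64, 8.34 and 8.22. From spinal cord came 11.16, 11.05 and 11.11 in the proliferative and 11.16, 11.01 and 11.2 in the differentiated state. The tissues were far apart in both states. The rise in brain was 2.48-fold (adjusted p = 1.57e-06), the spinal cord change was 0.01 ± 0.12 (adjusted p = 0.939), and the difference of responses was -1.29 (adjusted p = 4.86e-05). By the other probe set of Ndrg1 the difference was -1.05 and not called (adjusted p = 0.084). That probe set was dim in proliferative brain cultures, so that the size of this difference is not measured. Markers of oligodendrocytes also rose in brain: of 8 genes 7 were tested, with a summed level of 11.51 to 12.39 in proliferative brain (Mog and Mobp dim), 15.30 to 15.60 in differentiated brain, 15.23 to 15.34 in proliferative spinal cord and 15.17 to 15.39 in differentiated spinal cord cultures. In differentiated cultures these ranges overlapped between the tissues, whereas the signals of Ndrg1 did not. Their part in the values of Ndrg1 was not tested.

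P4ha1 and P4ha2 encode the catalytic chains of collagen prolyl 4-hydroxylase, which hydroxylates collagen in the endoplasmic reticulum. Both fell in brain, and P4ha2 rose in spinal cord. For P4ha2, brain arrays ran 8.82, 8.74 and 8.7 in the proliferative and 6.87, 7.5 and 7.92 in the differentiated state. Those of spinal cord ran 8.78, 9.77 and 8.93 and, once differentiated, 11.29, 11.32 and 11.34. Differentiated spinal cord arrays were above all others and differentiated brain arrays below all others. P4ha2 fell 2.5-fold in brain (adjusted p = 0.000816) and rose 4.45-fold in spinal cord (2.15 ± 0.26, adjusted p = 1.83e-05), a difference of 3.48 ± 0.36 (adjusted p = 5.93e-06). A second probe set of P4ha2, dim in every group except differentiated spinal cord cultures, gave a brain change of 1.30 between dim groups (not called, adjusted p = 0.277), a difference of 1.43 (not called, adjusted p = 0.418) and a rise of at least 1.82-fold in spinal cord (adjusted p = 0.0316). On its proliferative brain arrays P4ha1 read 10.69, 10.76 and 10.64, against 9.6, 9.51 and 9.54 on the differentiated ones. The spinal cord values were 10.5, 11.89 and 11.4 in proliferative and 11.2, 11.21 and 11.05 in differentiated cultures. The differentiated brain arrays were below all others here too. P4ha1 fell 2.22-fold in brain (adjusted p = 0.00131), and in spinal cord its change was -0.11 ± 0.24 (adjusted p = 0.75). Spinal cord proliferative replicate 1 lay below the other arrays of its group, and without it the spinal cord change was -0.49 (adjusted p = 0.00626, the range over the alternatives being 0.00626 to 0.937). For P4ha1 the responses differed by 1.04 (adjusted p = 0.0237), and 0.66 without that array (adjusted p = 0.0056). That call was lost with no variance trend in the fit (adjusted p = 0.0532, the highest over the alternatives, whose lowest was 0.0012). Fibroblast and meningeal markers rose with P4ha2 in spinal cord, by the summed levels above, and their part was not tested.

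Of the oxygen sensors, Egln3, the most hypoxia-inducible one, changed in opposite directions, and Egln1, the main one under normal oxygen, changed little. Signals of Egln3 in brain were 10.37, 10 and 10.28 before and 10.99, 11.08 and 11.15 after differentiation. Spinal cord cultures gave 8.25, 9.41 and 9.49 before and 7.35, 7.7 and 7.85 after. The order from differentiated brain down to differentiated spinal cord cultures held without overlap between neighbouring groups. Egln3 rose 1.82-fold in brain (adjusted p = 0.0141, and 0.0551 without brain proliferative replicate 2, the highest over the alternatives, whose lowest was 0.000135) and fell 2.67-fold in spinal cord (adjusted p = 0.000635). The difference was -2.28 ± 0.36 (adjusted p = 0.00024). Egln1 was at 10.3, 10.2 and 10.19 in brain and 10.25, 10.23 and 10.04 in spinal cord while cells proliferated. After differentiation it was at 10.16, 10 and 10.04 in brain and 9.99, 9.99 and 9.61 in spinal cord. All arrays of Egln1 lay between 9.61 and 10.3. Its fall of 1.24-fold in spinal cord (adjusted p = 0.0474) was lost under 14 of 22 alternatives, such as leaving out any 1 array but spinal cord proliferative 3 and spinal cord differentiated 1 and 2 (adjusted p = 0.0512 to 0.218), and was -0.18 without spinal cord differentiated replicate 3. Proliferative brain cultures had Hif1a signals of 12.45, 12.54 and 12.33, and differentiated ones 11.91, 12.19 and 12.22. In spinal cord these were 12.51, 13.37 and 13.59 and, after differentiation, 12.9, 12.86 and 12.81. Hif1a, the oxygen-regulated subunit of the factor, was higher in spinal cord than in most brain arrays. It was called in neither tissue with differentiation, at -0.33 ± 0.20 in brain (adjusted p = 0.194) and -0.30 ± 0.20 in spinal cord (adjusted p = 0.262). Spinal cord proliferative replicate 1 lay below the other arrays of its group, and without it both falls were called, -0.33 in brain (adjusted p = 0.00986, in a range of 0.00986 to 0.438) and -0.62 in spinal cord (adjusted p = 0.000409, in a range of 0.000409 to 0.775). The brain value stays the same because leaving out that array changes only the estimate of the spread.

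**Figure D4:**
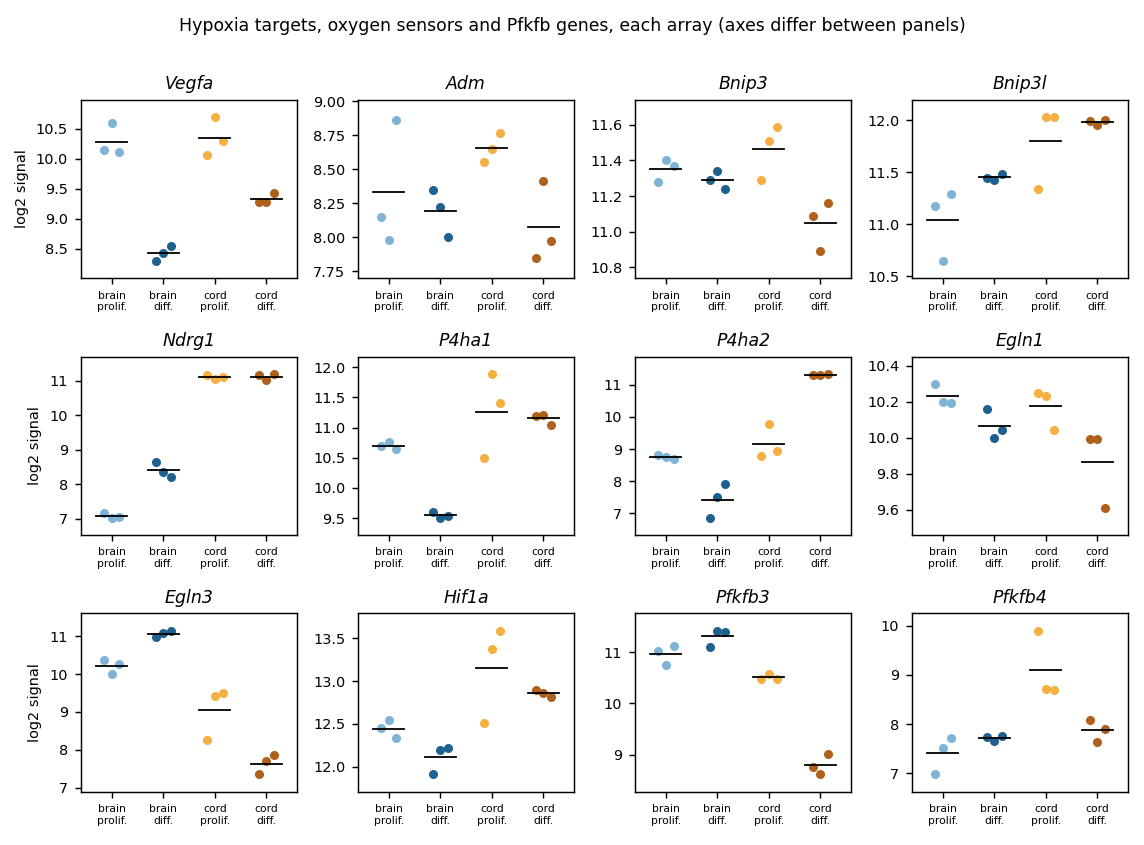
Log2 signal (y axis, range differs between panels) of 12 hypoxia targets, oxygen sensors and Pfkfb genes on each of the 3 arrays per group (x axis), with a line at the group mean. Ndrg1 separates the tissues, at 7.03 to 8.64 in brain and 11.01 to 11.20 in spinal cord, and in Hif1a, P4ha1 and Egln3 spinal cord proliferative replicate 1 lies below the other arrays of its group.

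The tissues were then compared within each state, with the same arrays. In proliferative cultures 7 of 32 members were higher in spinal cord, 4 were lower and 21 were not called, against 21.1% and 22.8% of all genes (19.4% and 18.5% of probe sets). After median centring, which moved the median of all genes by -0.21, 6 were higher and 9 lower, so that higher ones made up 40% of the member calls in place of 63.6%. In differentiated cultures 13 were higher, 5 lower and 14 not called, against 22.3% and 22.4% (18.5% and 22.9% of probe sets). The members' median difference was 0.08 there and that of all genes 0.00. Fitting only the arrays of those groups, 13 were higher and 8 lower, against 26.9% and 25.8% of all genes.

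Ndrg1 had the largest tissue difference in proliferative cultures, 16.2-fold higher in spinal cord (adjusted p = 1.86e-10), and was 6.61-fold higher in differentiated ones (adjusted p = 1.45e-09). Aldoc was 3.24-fold higher in proliferative spinal cord cultures (adjusted p = 0.000111) and 4.40-fold lower in differentiated ones (adjusted p = 9.21e-06). Pfkfb4 was 3.23-fold higher in the former (adjusted p = 0.000455) and Pdk4 at least 1.05-fold, since it was dim in brain (adjusted p = 0.00826, and 0.0589 in a fit of those 2 groups alone, in a range of 0.000224 to 0.0589). Eno2 was 1.52-fold higher (adjusted p = 0.00114), and Bnip3l 1.69-fold (adjusted p = 0.00433). Hif1a was 1.65-fold higher (adjusted p = 0.0117), which was lost without spinal cord proliferative 2 or 3 (adjusted p = 0.0518 and 0.0595), in a range of 4.51e-06 to 0.0595. Lower in spinal cord were Egln3 2.24-fold (adjusted p = 0.00297, with a change of -0.76 in place of -1.16 without spinal cord proliferative replicate 1), Hk1 1.65-fold, Ldha 1.62-fold and Pfkfb3 1.37-fold. The call of Pfkfb3 was lost without brain proliferative replicate 3 (adjusted p = 0.0576, the highest over the alternatives, whose lowest was 0.00304).

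Without spinal cord proliferative replicate 1, P4ha1 was higher by 0.95 (adjusted p = 4.19e-05) and Pfkm by 0.37 (adjusted p = 0.0322) in proliferative spinal cord cultures, and with it neither was called (0.57 and 0.02). Without brain proliferative replicate 3, Adm was higher by 0.59 (adjusted p = 0.0285) and Pdk1 lower by a change of -0.55 (adjusted p = 0.0375). Eno1, at -0.26, had an adjusted p of 0.0538, and 0.0363 to 0.0494 without brain proliferative 2, spinal cord proliferative 3 or spinal cord differentiated 3.

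**Figure D5:**
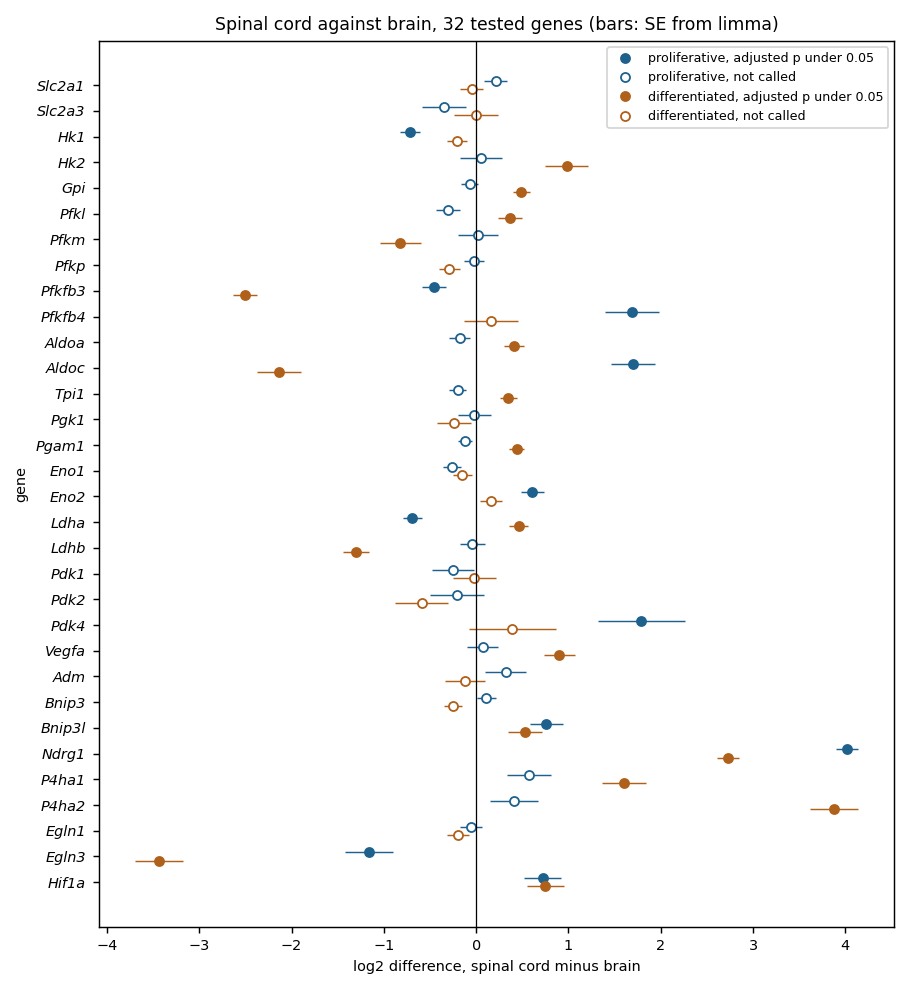
Log2 difference between tissues (x axis, spinal cord minus brain) of the 32 tested genes (y axis), proliferative cultures in blue and differentiated cultures in orange, with bars for limma's standard error and filled points for an adjusted p under 0.05. Ndrg1 lies at 4.02 and 2.73, P4ha2 at 0.41 and 3.88, and Egln3 at -1.16 and -3.44.

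In differentiated cultures P4ha2 was 14.8-fold higher in spinal cord (adjusted p = 5.03e-08), and P4ha1 3.04-fold (adjusted p = 9.66e-05). By the dimmer probe set P4ha2 was at least 1.90-fold higher and not called (adjusted p = 0.0663). Egln3 was 10.9-fold lower (adjusted p = 1.64e-07), Pfkfb3 5.68-fold (adjusted p = 5.94e-09), Ldhb 2.46-fold (adjusted p = 5.52e-06) and Pfkm 1.77-fold (adjusted p = 0.0092). Together with Aldoc these are the 5 lower members. This comparison shares the differentiated brain arrays with the brain response. Of the glycolytic enzymes that had fallen in brain, Eno1 was not called here (-0.15, adjusted p = 0.259). Others were higher in spinal cord: Ldha 1.38-fold (adjusted p = 0.0021), Pgam1 1.36-fold (adjusted p = 0.000456), Aldoa 1.33-fold (adjusted p = 0.00811), Tpi1 1.27-fold (adjusted p = 0.0073) and Hk2 at least 1.70-fold (adjusted p = 0.00375). Gpi was 1.41-fold higher (adjusted p = 0.000807) and Vegfa 1.86-fold (adjusted p = 0.00061). Hif1a was 1.69-fold higher (adjusted p = 0.00774). The calls of Pfkl (1.29-fold, adjusted p = 0.0418) and Bnip3l (1.44-fold, adjusted p = 0.0296) were each lost without any 1 of the 6 differentiated arrays (adjusted p = 0.0556 to 0.128 and 0.0614 to 0.075). Pfkp and Bnip3 were not called at -0.29 and -0.25 (adjusted p = 0.0564 and 0.0616), and were without spinal cord proliferative replicate 1 (adjusted p = 0.0143 and 0.0278). For Pfkp the same held without spinal cord proliferative replicate 3 (adjusted p = 0.0456), and for Bnip3 without spinal cord differentiated replicate 3 (adjusted p = 0.0453).

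The neighbours of the pathway were taken from 6 lists. In the pentose phosphate pathway, which branches off to make ribose and NADPH, 0 of 7 tested genes rose and 2 fell in brain. These are 0% and 28.6%, against 24.1% and 28.5% of all genes, so that only the share that fell was at the background. In spinal cord 3 rose and 1 fell (42.9% and 14.3%, against 20.9% and 22.6%). The difference of responses was called higher for 5 of these 7 (71.4%, against 23.7% of all genes), with a median of 0.98 against 0.06 for all genes (0.29 after median centring). Rpia, ribose 5-phosphate isomerase, fell 4.64-fold in brain (adjusted p = 9.83e-09), and Tkt, transketolase, 1.87-fold (adjusted p = 8.53e-05). H6pd and Pgls, which act at the start of the pathway, rose 2.57-fold and 2.10-fold in spinal cord (adjusted p = 0.00805 and 1.84e-05).

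Around pyruvate, 7 of 14 tested genes of lactate and pyruvate transport and of pyruvate dehydrogenase rose and 3 fell in brain (50% and 21.4%, against 24.1% and 28.5% of all genes). In spinal cord 6 rose and 0 fell (42.9% and 0%, against 20.9% and 22.6%). Pc, pyruvate carboxylase, an enzyme of astrocytes, rose 4.06-fold in brain (adjusted p = 1.42e-07), and Slc16a3, a lactate exporter, fell at least 1.75-fold (adjusted p = 0.000543). In spinal cord Pdk3, a further kinase of pyruvate dehydrogenase, rose 4.42-fold (adjusted p = 1.03e-08) and Slc16a7, a monocarboxylate transporter, 3.88-fold (adjusted p = 3.08e-05). Slc16a3 was 3.82-fold higher in proliferative and at least 4.96-fold higher in differentiated spinal cord than in brain cultures. Pdp1, the phosphatase that reactivates pyruvate dehydrogenase, was 3.33-fold lower in proliferative spinal cord than brain cultures (adjusted p = 1.25e-06).

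Of the 21 tested genes of side steps, other isozymes and glycogen, 6 rose and 3 fell in brain (28.6% and 14.3%, against 24.1% and 28.5% of all genes). In spinal cord 8 rose and 3 fell (38.1% and 14.3%, against 20.9% and 22.6%). Gpd1, which links glycolysis to glycerol lipids, fell 3.81-fold in brain (adjusted p = 9.75e-08) and 3.03-fold in spinal cord (adjusted p = 6.8e-07). Pygl, a glycogen phosphorylase, was 3.14-fold and 3.82-fold higher in spinal cord than brain cultures in the proliferative and the differentiated state. The muscle form Pygm, dim in the other 3 groups, rose at least 2.37-fold in spinal cord. Differences of responses were -1.17 for Gbe1, the glycogen branching enzyme, and 1.11 for Adpgk, an ADP-dependent glucokinase (adjusted p = 0.000277 and 0.00077). Of 3 tested genes of gluconeogenesis, only Pck2, a mitochondrial PEP carboxykinase, was called in these comparisons: it fell 1.97-fold in brain and rose 3.25-fold in spinal cord (adjusted p = 0.00145 and 2.08e-05).

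In the machinery of the hypoxia factor, 3 of 12 tested genes rose and 5 fell in brain (25% and 41.7%, against 24.1% and 28.5% of all genes). In spinal cord 3 rose and 0 fell (25% and 0%, against 20.9% and 22.6%). Only the shares that rose lay near the background. Epas1, the paralogue of Hif1a, rose in both, 3.21-fold (adjusted p = 1.49e-07) and 2.09-fold (adjusted p = 1.21e-05). Cited2, which competes with the factor for its coactivator, fell 3.74-fold in brain (adjusted p = 3.66e-08). Arnt2, a partner subunit, rose 3.58-fold in spinal cord (adjusted p = 3.77e-08). Among 33 further hypoxia targets 7 rose and 11 fell in brain (21.2% and 33.3%, against 24.1% and 28.5% of all genes), near the background. In spinal cord 9 rose and 13 fell (27.3% and 39.4%, against 20.9% and 22.6%). Igfbp3, which binds insulin-like growth factors, fell 16.2-fold in brain (adjusted p = 2.19e-10), and Flt1, a receptor of Vegfa, at least 1.86-fold (adjusted p = 0.00034). Lox, the collagen crosslinker, which is also on the fibroblast list, rose 14.3-fold in spinal cord (adjusted p = 1.29e-07) and was at least 189-fold higher there than in brain in differentiated cultures. Loxl2, of the same family, was at least 9.31-fold higher in them (adjusted p = 5.12e-05).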

How the data were processed

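RNA was measured on 12 Affymetrix Rat230_2 arrays, 3 in each of 4 groups named in the sample titles. The deposited values are log2 signals of 31099 probe sets. The submitters' processing notes name MAS5 and affy, with no version. On every array the mean of the linear signals, after trimming 2% at both ends, was 500. From these values 57 control probe sets were left out, and a probe set was tested where at least 3 of the 12 arrays lay above their own 40th percentile. One mean per group was fitted to all arrays with limma 3.58.1 (R 4.3.3; lmFit, eBayes with a variance trend, 8 residual degrees of freedom), with Benjamini-Hochberg adjustment over 20834 probe sets and a threshold of 0.05. The script was tested on simulated data. Errors are limma's SE or the SD of 3 arrays.

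A gene is represented by its tested probe set of highest mean signal. Of the probe sets, 20826 have 1 symbol, 436 several and 9780 none. Values of every array are given for the genes with a paralogue in the set and for the 10 members with the largest called change in each comparison. Alternatives were median centring, quantile normalization, an offset of 64 on the linear scale, other filters, no variance trend, a replicate block, other probe sets, fits of the compared groups alone and leaving out each array. The control probe sets of Gapdh and hexokinase and the count of arrays that stand apart were added after seeing the data. The members and lists were chosen with earlier results of these data known. The comparisons share arrays.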

Additional observations from a re-analysis of the deposited data

Results flagged for a closer look

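The response to differentiation differed between the tissues for 19 of 32 members, by limma's test of the change in spinal cord minus the change in brain. Of the members 34.4% were higher and 25% lower, against 23.7% and 21.2% of all genes by the same test. The values below are log2 differences with adjusted p-values. The largest was that of Aldoc, at -3.84 (adjusted p = 1.57e-06), followed by P4ha2 at 3.48 (5.93e-06), Egln3 at -2.28 (0.00024), Pfkfb3 at -2.05 (1.75e-06) and Pfkfb4 at -1.53 (0.0087).

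Ndrg1 differed by -1.29 (4.86e-05), Ldhb by -1.26 (0.000212), Ldha by 1.15 (2.46e-05) and P4ha1 by 1.04 (0.0237). Hk2 gave 0.93 (0.0352), a value against a group in which it was dim, so that its size is not measured. Pfkm differed by -0.85 (0.0468), Vegfa by 0.83 (0.0118) and Pfkl by 0.68 (0.011). Smaller differences were those of Aldoa (0.59, 0.00759), Gpi (0.57, 0.00389), Pgam1 (0.56, 0.00124), Tpi1 (0.54, 0.00405), Hk1 (0.51, 0.015) and Eno2 (-0.45, 0.0437). The calls of Hk2, Pfkm and Eno2 were lost on leaving out any 1 of 6, 10 and 10 arrays, respectively. Those of P4ha2 and Pfkfb4 were lost with the probe set of highest variance, and that of P4ha1 with no variance trend.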

How the results depend on the processing

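Of 85 called member changes over the 5 comparisons, 64 kept call and sign under every alternative, and of 75 that were not called 26 were called under at least 1. After median centring, 9 in place of 4 members and 6214 in place of 3844 of all probe sets were lower in proliferative spinal cord than brain cultures. With only the arrays of the compared groups, 8 in place of 5 members were lower in differentiated spinal cord cultures. The share of all genes that were lower there was 25.8% in place of 22.4%. The probe set of highest variance turned the brain change of P4ha2 to 1.30 (adjusted p = 0.277) and the difference of responses of Pgk1 to 0.59 (adjusted p = 0.00223). The cause was not tested.

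Leaving out 1 array gave 7 to 10 members higher and 10 to 12 lower in brain, 4 to 6 and 9 to 12 in spinal cord, 6 to 9 and 4 to 5 between proliferative cultures, 11 to 13 and 5 to 7 between differentiated ones, and 10 to 11 and 6 to 9 for the difference of responses. For all probe sets, in the same order, 4165 to 5262, 3098 to 3943, 3365 to 4300, 3247 to 4279 and 3457 to 4361 were higher, and 4109 to 5213, 3808 to 4730, 3054 to 4348, 3903 to 5145 and 3989 to 4818 lower.

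With the replicate number as a block, 9, 5, 7, 12 and 10 members were higher and 11, 10, 4, 5 and 7 lower. Of all genes, 23.4%, 20%, 20.4%, 21.3% and 22.4% were higher and 27.4%, 21.4%, 21.6%, 21.4% and 20.4% lower, in the same order. Arrays of the same number did not deviate together (correlations of -0.12 to 0.05), and 0 of 12 correlated best with their own number, so no pairing by number was seen. These correlations cannot tell whether arrays of the same number came from a common culture or animal, and no label says so.

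Median centring moved the median of all genes by -0.15, 0.08, -0.21, 0.02 and 0.23 in that order, and the share of higher calls over all probe sets from 50.6% to 38.2%, 45.3% to 52.3%, 51.2% to 31.7%, 44.7% to 46.2% and 46.4% to 61.3%. The number of arrays limits the precision, and dim genes have only bounds.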

Other observations

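Levels of microglial and vessel markers also differed between groups. The summed level of 6 tested microglial and macrophage genes was 8.43 to 8.95 in proliferative brain (Aif1, Csf1r, C1qb and Ptprc dim), 9.39 to 9.59 in differentiated brain, 11.15 to 11.95 in proliferative spinal cord and 10.38 to 10.53 in differentiated spinal cord cultures. Of 8 endothelial genes only Kdr and Flt1, both receptors of Vegfa and also on the list of further hypoxia targets, were tested. Their summed level was 7.46 to 8.06 in proliferative and 4.99 to 6.96 in differentiated brain, and 7.13 to 7.82 and 4.63 to 5.87 in spinal cord cultures.

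Car9, left out by the filter, had changes of -0.75 in brain and -0.57 in spinal cord when all probe sets were tested (adjusted p = 0.302 and 0.469 by limma).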
